A study of Mus musculus with 6 samples.

Results

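Mouse embryonic stem cells driven from naive towards primed pluripotency do not all lose naive genes at the same pace, and the cells described here are primed cells with high levels of such genes after 4 days of priming. They are the 25% of primed_4d cells with the largest share of their counts in 8 naive genes (Zfp42, Esrrb, Klf4, Klf2, Tfcp2l1, Tbx3, Nr0b1 and Dppa5a), set against the 25% with the smallest share. They were thus chosen by measured values of these same cells. The share was ranked within each library among wells of 10000 or more counts, which left 245 of the 376 primed wells. The naive-high group held 62 cells (25 R1 and 37 IB10) and the naive-low group held 62 cells (25 R1 and 37 IB10), out of 1128 wells in the whole series. Another 131 primed wells had under 10000 counts (90 R1 and 41 IB10) and entered neither group.

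RNA was counted by SORT-seq, in which single cells are sorted into the wells of a plate and each captured polyadenylated transcript is tagged with a UMI, a short random barcode that lets copies made by PCR be counted once. R1 and IB10 are long-established mouse lines, with 1 library per line and culture, so there were 6 libraries and every comparison rests on 2 pairs. All cultures held LIF in serum-free N2B27 medium on plastic coated with gelatin and fetal calf serum, and the labels name no feeder layer. Primed_4d cells were given 12 ng/ml FGF2, 20 ng/ml human Activin A and 2 µM IWP2 (a blocker of WNT secretion) for 4 days, at passage 24 (R1) and 28 (IB10). Rosette_LIM cells had 2 µM IWP2 and 0.1 µM PD325901 (a MEK inhibitor) over 6 (R1) and 5 (IB10) passages, at passage 28 (R1) and 33 (IB10). LIF_2i cells had 3 µM CHIR99021 (a GSK3 inhibitor) with 0.1 µM PD325901, at passage 24 (R1) and 28 (IB10). Primed libraries held 4675388 (R1) and 5298692 (IB10) counts, and the other libraries 5164933 to 7806882. The median primed well that passed the minimum held 46324 counts in R1 and 33282 in IB10.

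Naive pluripotency is the state of the preimplantation epiblast, kept in culture by LIF and blockade of MEK, with a circuit of transcription factors that includes Esrrb, Klf4, Klf2, Tfcp2l1 and Tbx3. On FGF and Activin signalling the circuit is taken down and formative and primed genes such as Pou3f1, Fgf5, Otx2 and Dnmt3b come up, while Pou5f1 and Sox2 stay on. Single cells pass through this exit unevenly, and Zfp42 (Rex1) is a usual reporter of the cells that have not left. Dppa5a encodes a small RNA-binding protein abundant in naive cells.

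The promoter windows of a score gene and of a de novo methylase gene that ran opposite to it are shown because their genes mark the 2 ends of the split. Each runs from 250 bases before to 50 bases after the gene's start, 5′ to 3′ on the gene's strand, from RefSeq (GRCm38.p6). Zfp42 lies at chr8:43306960-43307259 on the minus strand, and Dnmt3b at chr2:153649199-153649498 on the plus strand. Capitals mark matches, on either strand, to the octamer ATTTGCAT bound by POU factors and to GGGNGNGG, the core of KLF sites.
Zfp42: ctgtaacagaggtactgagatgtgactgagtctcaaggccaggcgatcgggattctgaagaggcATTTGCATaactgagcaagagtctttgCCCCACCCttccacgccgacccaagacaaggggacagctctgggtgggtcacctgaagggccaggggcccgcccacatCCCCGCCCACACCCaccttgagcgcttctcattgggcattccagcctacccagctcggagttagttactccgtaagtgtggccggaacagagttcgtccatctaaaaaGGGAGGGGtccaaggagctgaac
Dnmt3b: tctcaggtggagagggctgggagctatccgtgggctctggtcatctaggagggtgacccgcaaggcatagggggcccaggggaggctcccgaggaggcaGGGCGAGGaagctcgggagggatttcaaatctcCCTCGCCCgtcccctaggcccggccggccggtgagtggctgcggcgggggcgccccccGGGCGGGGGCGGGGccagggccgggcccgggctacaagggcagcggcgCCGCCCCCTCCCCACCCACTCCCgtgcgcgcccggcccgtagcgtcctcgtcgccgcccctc
The Zfp42 window held 1 octamer and 4 matches to the KLF core, some of them overlapping, and the Dnmt3b window held 0 octamers and 9 KLF matches. Of 32851 RefSeq promoters of the same length, 1.74% held the octamer and 49.5% the KLF core. A match is a description of the letters, not evidence of binding.

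The values that chose the cells come first, as a description without a test. In R1 the naive-high group had a median of 4034 CPM (counts per 1000000 counts of the cell) in the 8 genes, against 1597 in the naive-low group. In IB10 the medians were 4834 CPM in naive-high and 2087 CPM in naive-low cells. The cuts fell inside a continuous range: the lowest R1 naive-high cell had 3500 CPM and the next cell below it 3419, and the highest R1 naive-low cell had 1971 CPM and the next above it 1987. In IB10 the same neighbours were 4236 and 4234 CPM at the upper cut, and 2433 and 2488 CPM at the lower cut.

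Dppa5a dominated this score. It made up 86.9% of the summed score over R1 primed cells and 85% over IB10 primed cells, against 51.1% to 55.2% in the rosette_LIM and LIF_2i libraries. Dppa5a stood at 3715 (R1) and 4058 (IB10) CPM in naive-high cells, against 1328 (R1) and 1805 (IB10) CPM in naive-low cells. When groups were set by the other 7 genes, Dppa5a was still 1.53 times (R1) and 1.47 times (IB10) as high in the upper group. Over single cells, Dppa5a and the sum of the other 7 correlated by 0.385 (R1, 98 cells) and 0.360 (IB10, 147 cells) in primed_4d, by 0.158 and 0.198 in rosette_LIM, and by -0.00203 and -0.0438 in LIF_2i. These are descriptions over cells of 1 library each, whose shares have a common denominator.

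Zfp42, Esrrb, Klf2, Tfcp2l1 and Nr0b1 differed by larger ratios than Dppa5a in both lines, while Klf4 and Tbx3 did so in IB10 but not in R1, where their ratios were 1.76 and 2.29 beside 2.80 for Dppa5a. Zfp42 had 279 (R1) and 525 (IB10) CPM in naive-high cells, against 54.6 (R1) and 44.3 (IB10) CPM in naive-low cells. Esrrb, an orphan nuclear receptor of the naive circuit, had 82.6 and 139 CPM in naive-high cells, against 19.3 and 12.9 CPM in naive-low cells (R1 and IB10 in this order here and in the pairs below). Nr0b1 (Dax1), a nuclear receptor that represses others, had 110 and 132 CPM in naive-high cells, against 12.0 and 25.7 CPM in naive-low cells. Klf2, a Krüppel-like factor, had 280 and 157 CPM in naive-high cells, against 46.6 and 50.8 CPM in naive-low cells. The ordering of the lines was not constant, since Klf2 was higher in R1 and Zfp42 and Esrrb were higher in IB10. Klf4, Tfcp2l1 and Tbx3 were scarce in both groups, with 11.7 to 52.9 CPM in naive-high cells and 2.14 to 8.83 CPM in naive-low cells. Over all LIF_2i cells the same 3 genes had 187 to 488 CPM.

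**Figure D1:**
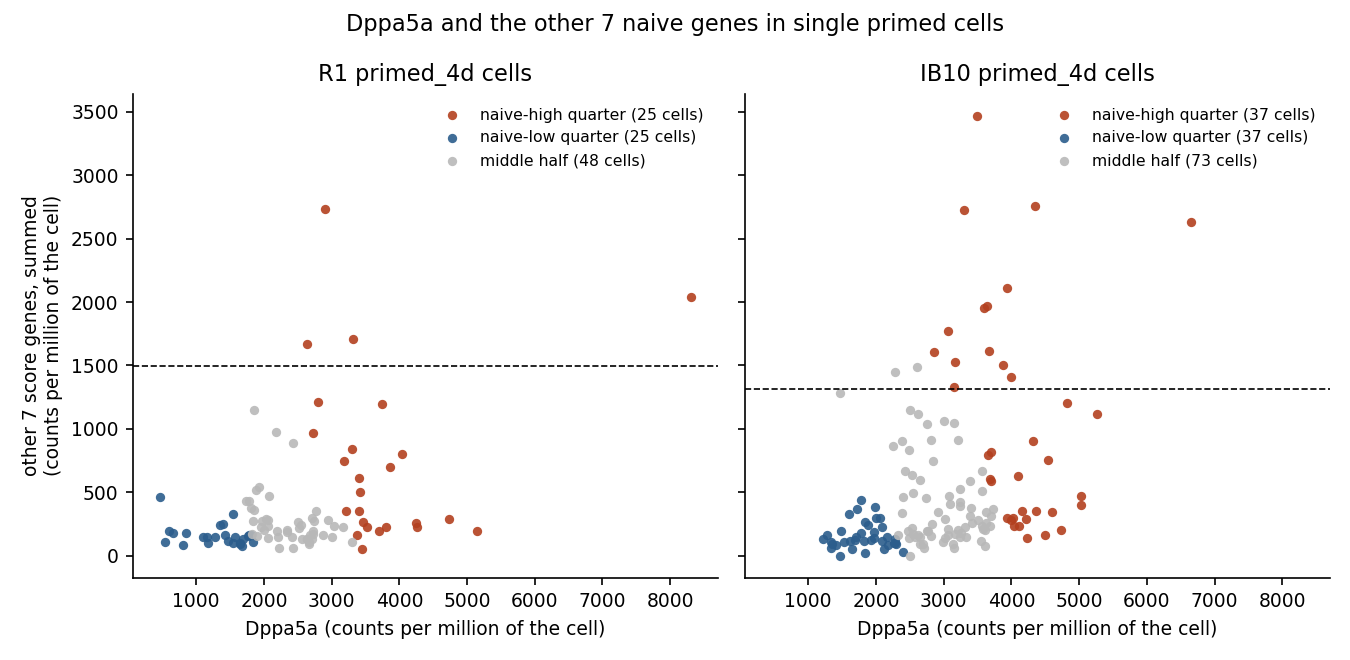
Each point is 1 primed_4d cell of R1 (left) or IB10 (right), with Dppa5a on the x axis and the sum of the other 7 score genes on the y axis, both in CPM of the cell. Colours give the group, and the dashed line is the lowest LIF_2i cell of the same line in the 7 genes. Of the naive-high cells, 4 of 25 (R1) and 14 of 37 (IB10) lie on or above it, and the rest spread along the Dppa5a axis.

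The naive-high group was a mixture in the genes other than Dppa5a. The lowest LIF_2i cell had 1496 CPM (R1) and 1314 CPM (IB10) in those 7 genes, and 16.0% of R1 and 37.8% of IB10 naive-high cells were at or above this value. No naive-low cell reached it in either line (0 of 25 and 0 of 37), and of the cells ranked between the groups 0 of 48 (R1) and 2 of 73 (IB10) did. The naive-low zeros followed largely from the ranking and do not separate the groups. In IB10 naive-low scores ended at 2433 CPM and Dppa5a began at 1212 CPM, which left no room for 1314 CPM in the 7 genes. In R1 these values were 1971 and 462 CPM, so only a cell with close to the least Dppa5a could have reached 1496 CPM. Among naive-high cells the 7 genes ranged from 54.3 to 2736 CPM (median 503) in R1 and from 140 to 3470 CPM (median 794) in IB10. The highest naive-low cells had 462 CPM (R1) and 443 CPM (IB10), so the groups overlapped in these genes, and cells ranked between them reached 1153 CPM (R1) and 1486 CPM (IB10). The 18 naive-high cells at or above the lowest LIF_2i cell are called cells at the LIF_2i level here. The median LIF_2i cell had 2776 (R1) and 2864 (IB10) CPM in the 7 genes, so the name marks a lower limit and not a typical level. These 18 cells were examined after these values were seen, and their pooled levels carry no test.

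Those 18 cells differed from LIF_2i cells in both directions, gene by gene. Zfp42 stood at 736 (R1) and 1043 (IB10) CPM in them, against 1188 and 1062 CPM in LIF_2i cells. Tfcp2l1 stood at 36.9 and 40.3 CPM in them, against 367 and 488 CPM in LIF_2i cells. Tbx3 likewise was far below, at 36.9 and 25.2 CPM in them, against 187 and 213 CPM in LIF_2i cells. Dnmt3b, the methylase that sets new DNA methylation in the epiblast, lay between the states at 322 and 247 CPM, with 1071 and 1263 CPM in naive-low primed cells and 77.5 and 89.8 CPM in LIF_2i cells. Nr0b1 was above the LIF_2i level, at 306 and 260 CPM in them, against 91.5 and 146 CPM in LIF_2i cells. Klf2 stood at 683 and 262 CPM in them, against 309 and 256 CPM in LIF_2i cells. The 37 formative and primed genes listed for this work summed to 2740 and 2673 CPM in them, to 4837 and 5510 CPM in naive-low primed cells and to 1500 and 1588 CPM in LIF_2i cells. The other 44 naive genes summed to 8634 and 8311 CPM in them, to 5199 and 5080 CPM in naive-low primed cells and to 9320 and 9487 CPM in LIF_2i cells.

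Apart from the score genes, which were left out of the test, 339 of 8646 genes tested were higher in naive-high than in naive-low primed cells (3.92%) and 250 were lower (2.89%), by edgeR's quasi-likelihood test with line as a block and an adjusted p under 0.05. Of these 589 genes (6.81%), 582 had the same sign in both lines (98.8%), beside 61.2% of all genes tested. A call over 2 pairs favours genes that agree in sign, so this is no separate support. Of the genes called, 186 rose and 171 fell by at least 2-fold. The lines supply 2 pairs and 1 residual degree of freedom, so these p-values rest on a spread shared across genes, and nothing in the labels tells separate cultures within a line apart. DESeq2 called far fewer, 36 higher (0.416%) and 7 lower (0.081%), and a fit without the replicate block called 117 higher and 46 lower. Of the genes described below, DESeq2 called Tdh, Fbxo15, Morc1, Hspb1, Dnmt3l, Dnmt3b, Pou3f1, Lgals3, Cldn7, Pfkp and Rn45s, and it did not call Gpx4 (adjusted p = 0.0644), Klf5 (0.0515), Fgf5 (0.0691), Sox2 (0.108) or Dppa2 (0.673), nor Dppa4, Pou5f1, Tet1, Tet2, Pim2, Zic2, Foxd3 and Malat1. A filter on counts lets a gene pass through 1 group alone, so counts over list members are descriptions and are read beside these shares.

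**Figure D2:**
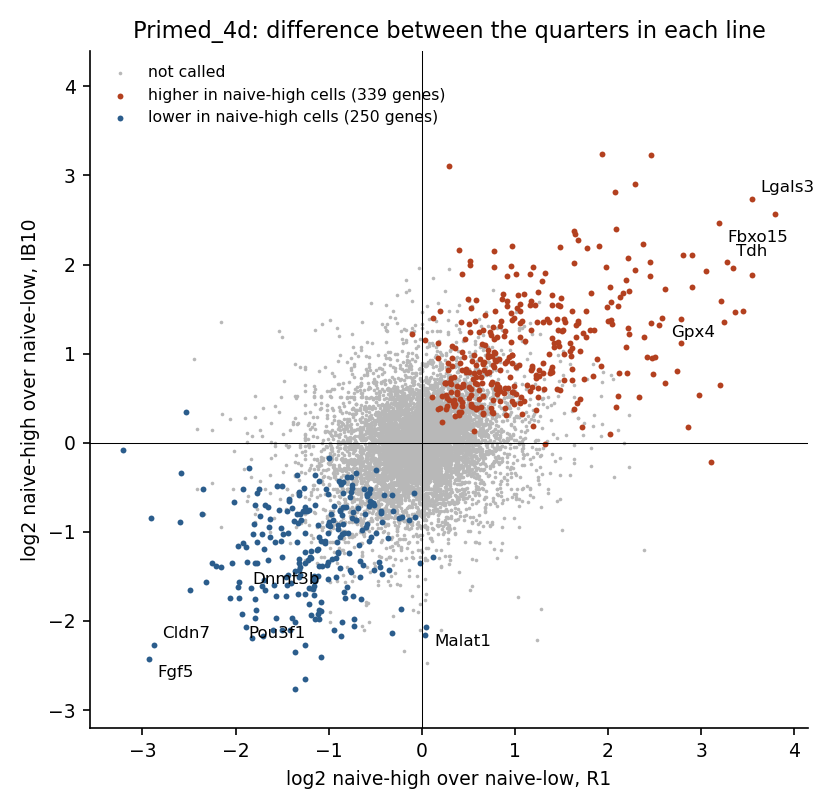
Each point is 1 of the 8646 genes tested, with its log2 difference (naive-high over naive-low) in R1 on the x axis and in IB10 on the y axis. The 339 called higher lie mostly in the upper right and the 250 called lower in the lower left, and Malat1 sits on the vertical axis because it differed in IB10 only.

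Other naive genes were higher in the naive-high cells. Of 44 naive genes outside the score, 39 were tested, 25 rose and 0 fell, beside 3.92% and 2.89% of all genes tested. Their median log2 difference was 1.05, beside 0.00 over all genes tested. Those that rose included Aire, Nr5a2, Fbxo15, Manba, Mylpf, Tdh, Laptm5, Morc1, Tcl1, Jam2, Ooep, Pecam1, Sox15, Zfp57, Tet2, Klf5, Upp1, Trh, Alpl, Mkrn1, Dppa4, Dppa2, Ash2l and Trim28. This list was drawn up with earlier results of these data known and gives no independent evidence of its direction. DESeq2 called 6 of the list higher.

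Tdh (chr14:63492347-63509092, minus strand), the threonine dehydrogenase that mouse naive cells use to feed one-carbon metabolism, had 225 (R1) and 119 (IB10) CPM in naive-high cells, against 22.5 (R1) and 28.6 (IB10) CPM in naive-low cells. The summed levels of the groups did not overlap, while single cells did, since naive-high cells began at 0 CPM and naive-low cells reached 120 (R1) and 318 (IB10) CPM. The log2 rise of Tdh was 2.73 ± 0.22 (SE from the spread shared across genes, edgeR adjusted p = 1.21e-30). Tdh rose by 3.28 in R1 and by 2.03 in IB10. Its 3 richest cells gave 51.6% (R1) and 40.2% (IB10) of the counts of the naive-high group, against 28.6% and 32.5% in the naive-low group, so part of the level came from few cells. The median cell had 127 and 73.2 CPM in naive-high, against 23.6 and 22.3 CPM in naive-low.

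Fbxo15 (chr18:84934782-84981473, plus strand), an F-box gene expressed in embryonic stem cells, had 134 and 93.0 CPM in naive-high cells, against 13.6 and 15.7 CPM in naive-low cells. The difference was 2.96 ± 0.26 on the log2 scale (SE, edgeR adjusted p = 4.53e-26), with 3.20 in R1 and 2.47 in IB10. Klf5 (chr14:99298691-99315036, plus strand), a Krüppel-like factor of naive cells, had 110 and 141 CPM in naive-high cells, against 54.6 and 44.3 CPM in naive-low cells. It rose by 1.38 ± 0.21 (edgeR adjusted p = 4.64e-09). Morc1, which silences transposons in the male germ line, had 62.2 and 119 CPM in naive-high cells, against 4.82 and 30.0 CPM in naive-low cells. It rose by 2.47 ± 0.27 (edgeR adjusted p = 4.07e-17). In each of these 3 genes both lines agreed in direction, as did 61.2% of all genes tested. The 3 were called over the same 2 lines, so the agreement is no separate support.

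Smaller but called differences were seen in Dppa2 and Dppa4, paired chromatin proteins of pluripotent cells. Dppa2 had 220 and 220 CPM in naive-high cells, against 136 and 142 CPM in naive-low cells (log2 0.71 ± 0.17; edgeR adjusted p = 0.000848). Dppa4 had 211 and 235 CPM in naive-high cells, against 134 and 139 CPM in naive-low cells (log2 0.75 ± 0.17; edgeR adjusted p = 0.000319). Aire had 22 and 17 counts in naive-high cells, against 0 and 2 counts in naive-low cells, and no fold is given. Jam2 and Trh differed mainly in 1 line. Trh had 235 CPM in naive-high and 58.6 CPM in naive-low cells of R1, but 126 CPM in naive-high and 120 CPM in naive-low cells of IB10.

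Nanog did not follow. It had 24.3 (R1) and 0.979 (IB10) CPM in naive-high cells, against 16.9 (R1) and 5.00 (IB10) CPM in naive-low cells. The 2 lines moved in opposite directions, and the fitted difference was 0.11 ± 0.50 (edgeR adjusted p = 0.945). Further growth factors of the naive list were not called: Fgf4 had 66.1 and 124 CPM in naive-high cells, against 115 and 129 CPM in naive-low cells, and Gdf3 had 115 and 113 CPM in naive-high cells, against 136 and 85.1 CPM in naive-low cells. Prdm14, a repressor of FGF signalling in naive cells, had 11 counts in naive-high and 6 counts in naive-low cells over both lines and was not tested.

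**Figure D3:**
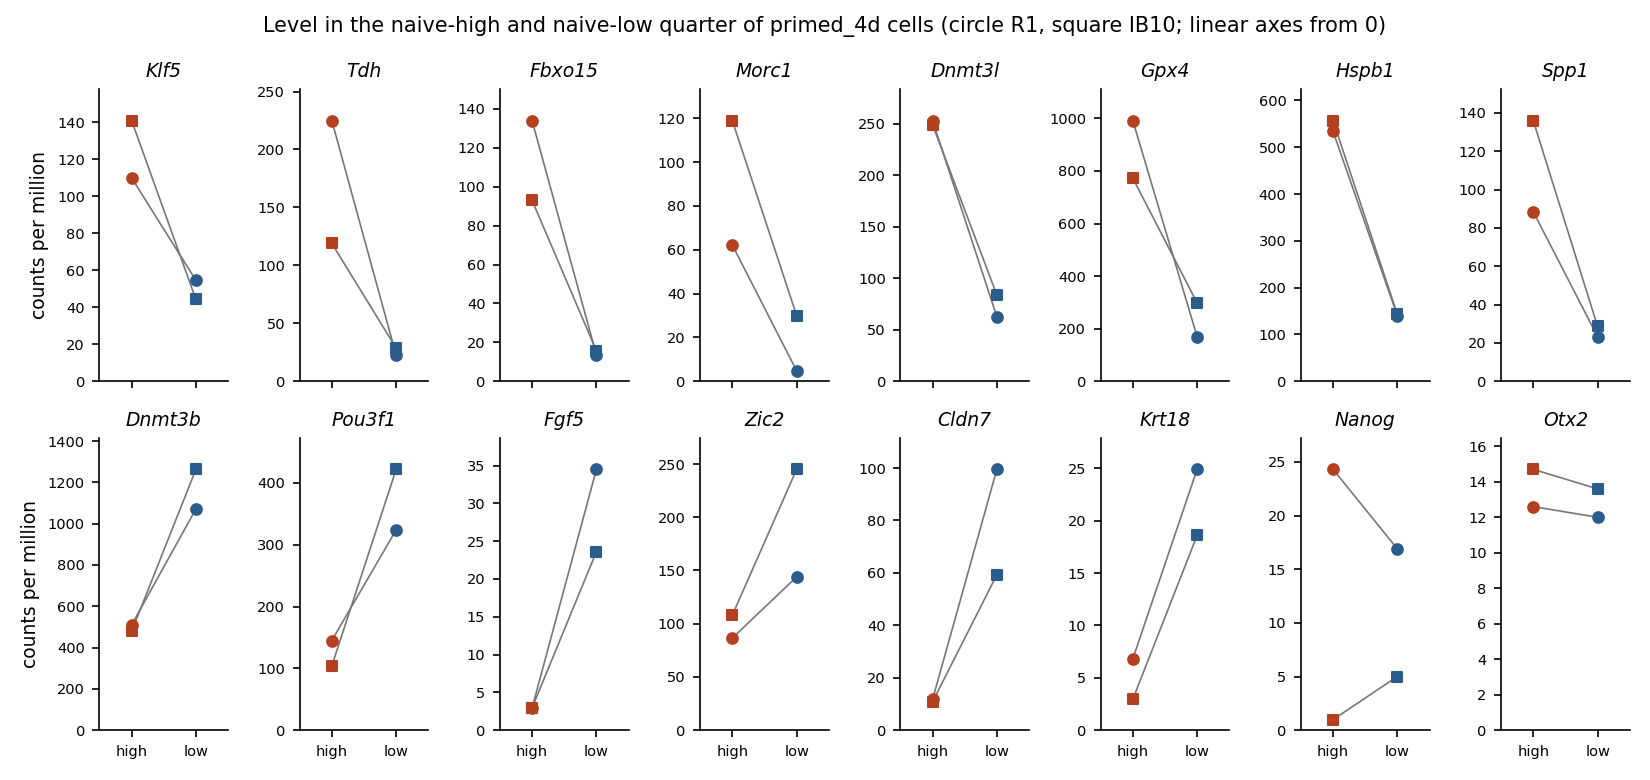
Level in CPM of 16 genes in the naive-high and the naive-low group of primed_4d cells, with a line joining the groups of R1 (circles) and of IB10 (squares). The upper row holds genes that rose in naive-high cells, and the lower row 6 that fell followed by Nanog and Otx2, which were not called.

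Formative and primed genes were lower in naive-high cells. Of 37 in the list, 32 were tested, 13 fell and 1 rose, beside 2.89% and 3.92% of all genes tested. Their median log2 difference was -0.61. Fgf5, Zfp608, Krt18, Car4, Pou3f1, Tmem54, Sall2, Dnmt3b, Pim2, Cldn6, Zic2, Sfrp2 and Gng3 fell, and Foxd3 rose. DESeq2 called 2 of the list lower. Pooled over naive-high cells, Dnmt3b and Pou3f1 were still above every rosette_LIM and LIF_2i library. Otx2 was not, at 12.6 and 14.7 CPM. It had 12.0 and 13.6 CPM in naive-low primed cells and 1.77 and 3.85 CPM in LIF_2i cells. In rosette_LIM it had 11.7 and 13.6 CPM in the upper group and 13.1 and 24.8 CPM in the lower group. Fgf5 had 3 counts in naive-high cells of each line. In the 18 naive-high cells at the LIF_2i level, Pou3f1 had 21.1 and 22.7 CPM, against 5.15 and 3.08 CPM in LIF_2i cells. The label of primed thus names the culture and did not hold in every marker, and for Otx2 this was so in naive-low cells too.

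Dnmt3b (chr2:153649450-153687730, plus strand) had 509 and 478 CPM in naive-high cells, against 1071 and 1263 CPM in naive-low cells. Over all cells of the other cultures it had 32.3 and 56.1 CPM in rosette_LIM and 77.5 and 89.8 CPM in LIF_2i. The log2 difference of Dnmt3b was -1.20 (SE 0.12, edgeR adjusted p = 8.32e-22), with -1.02 in R1 and -1.37 in IB10. The median cell had 530 and 365 CPM in naive-high, against 984 and 1177 CPM in naive-low, so the fall was also present in the typical cell.

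Pou3f1 (Oct6; chr4:124656807-124660655, plus strand), a POU factor switched on as naive cells exit, had 145 and 104 CPM in naive-high cells, against 324 and 422 CPM in naive-low cells. It fell by 1.54 (SE 0.16; edgeR adjusted p = 3.54e-19). Fgf5 (chr5:98254184-98277030, plus strand), the growth factor gene that marks the postimplantation epiblast, had 2.92 and 2.94 CPM in naive-high cells, against 34.5 and 23.6 CPM in naive-low cells. These are 3 and 3 counts in naive-high, against 43 and 33 counts in naive-low cells, and the fitted difference was -3.22 ± 0.53 (edgeR adjusted p = 1.06e-07). Rosette_LIM and LIF_2i libraries had 0.147 to 1.04 CPM of Fgf5.

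Among the other members, Pim2, a serine/threonine kinase, had 385 and 162 CPM in naive-high cells, against 468 and 608 CPM in naive-low cells (log2 -1.01 ± 0.14, edgeR adjusted p = 1.63e-10). Its fall was mainly in IB10, with a log2 difference of -1.86 there and -0.23 in R1. Zic2, a zinc finger factor of the epiblast and neural plate, had 86.5 and 108 CPM in naive-high cells, against 144 and 245 CPM in naive-low cells (log2 -0.94 ± 0.18; edgeR adjusted p = 1.44e-05). Foxd3, a forkhead factor required in the epiblast, had 77.7 and 61.7 CPM in naive-high cells, against 24.9 and 47.9 CPM in naive-low cells (log2 0.98 ± 0.24; edgeR adjusted p = 0.0021). Otx2, Lef1, Utf1 and Dnmt3a were not called. Otx2, which drives the naive exit in mouse cells, had 12.6 and 14.7 CPM in naive-high cells, against 12.0 and 13.6 CPM in naive-low cells (log2 0.13 ± 0.44; edgeR adjusted p = 0.929). Dnmt3a had 379 and 495 CPM in naive-high cells, against 317 and 415 CPM in naive-low cells (log2 0.30 ± 0.14; edgeR adjusted p = 0.205). Its direction turned with the score, with a log2 difference of -0.36 without Dppa5a (edgeR adjusted p = 0.024) and 0.47 with Dppa5a alone (edgeR adjusted p = 0.00483).

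Within the DNA methylation machinery, 10 of 12 genes were tested, 3 rose and 1 fell, beside 3.92% and 2.89% of all genes tested. Dnmt3l (chr10:78041947-78063622, plus strand), a cofactor without methylase activity of its own, had 253 and 249 CPM in naive-high cells, against 62.6 and 83.7 CPM in naive-low cells. It rose by 1.82 ± 0.18 (edgeR adjusted p = 1.92e-21). Dnmt3l levels over all cells were 23.1 and 63.7 CPM in rosette_LIM and 68.9 and 38.5 CPM in LIF_2i, so naive-high primed cells stood above both. Tet2, which oxidises methylcytosine, had 35.0 and 44.0 CPM in naive-high cells, against 13.6 and 16.4 CPM in naive-low cells (log2 1.43 ± 0.32; edgeR adjusted p = 0.000502). Tet1 had 215 and 315 CPM in naive-high cells, against 186 and 201 CPM in naive-low cells (log2 0.48 ± 0.15; edgeR adjusted p = 0.0358). Dnmt3b was the member that fell.

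Core pluripotency genes moved less. Of 15 tested, 5 rose (Sox2, Dppa4, Trp53, Pou5f1 and Tdgf1) and 1 fell (Lin28b), beside 3.92% and 2.89% of all genes tested. Sox2 had 536 and 592 CPM in naive-high cells, against 299 and 393 CPM in naive-low cells (log2 0.75 ± 0.13; edgeR adjusted p = 1.17e-06). Pou5f1 (Oct4) had 900 and 745 CPM in naive-high cells, against 497 and 612 CPM in naive-low cells (log2 0.61 ± 0.12; edgeR adjusted p = 2.43e-05). Sall4, Lin28a and Utf1 were not called, with log2 differences of 0.38, -0.25 and -0.23.

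Among signalling targets, 3 of 13 LIF/STAT3 targets tested rose (Bcl3, Klf5 and Gbx2), with a median of 0.67, beside 3.92% of all genes tested, while Socs3 was not called (log2 1.14 ± 0.42; edgeR adjusted p = 0.0767). Of the FGF/ERK targets, 0 of 13 tested passed in either direction, with 6 at an unadjusted p under 0.05 in edgeR and 0 called by DESeq2. Spry4 had 48.6 and 49.9 CPM in naive-high cells, against 29.7 and 29.3 CPM in naive-low cells, and Dusp6 had 41.8 and 53.8 CPM in naive-high cells, against 57.0 and 84.4 CPM in naive-low cells. Of 11 Nodal/Activin targets 1 rose (Tdgf1, the Nodal co-receptor). Lefty1, an inhibitor of Nodal, had 996 and 559 CPM in naive-high cells, against 577 and 811 CPM in naive-low cells, with opposite signs in the lines. Of 7 WNT targets tested, Notum rose and Ccnd1 fell; Axin2, Sp5 and T were too low to test.

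The largest differences by rule were partly outside these lists. Lgals3 (galectin-3; chr14:47367751-47386160, plus strand) had 36.0 and 28.4 CPM in naive-high cells, against 1.61 and 2.86 CPM in naive-low cells (log2 3.80 ± 0.52; edgeR adjusted p = 8.41e-11). The other genes among the 15 largest rises were AU018091, Gm7325, Myo1f, Fbxo15, Manba, Mylpf, Tdh, Lgals9, Tex14, Fam25c, Cd97, Laptm5, Zfp819 and Morc1, with log2 differences of 2.47 to 3.27. Several had few counts in naive-low cells, with 2 and 4 for Lgals3 and Myo1f, 1 and 10 for Tex14, and 2 and 9 for Fam25c. Laptm5 had 0 and 8 counts there and Zfp819 had 4 and 12, so the size of these rises is uncertain. DESeq2 did not call Myo1f (adjusted p = 0.216), Tex14 (0.172), Fam25c (0.206), Laptm5 (0.431) or Zfp819 (0.0991). The 15 largest falls were Fgf5, Cldn7, Zfp608, Micu3, Mapk4, Krt18, Serf1, Bcl11b, Sema6a, Nnat, Hoxa5, F830016B08Rik, Pbx3, Kif1a and Car4, with log2 differences of -3.22 to -1.92. Most of these were scarce, and naive-high cells held 2 to 21 counts of each in a line. Cldn7 (chr11:69964779-69967885, plus strand), a tight junction claudin, had 11.7 and 10.8 CPM in naive-high cells, against 99.5 and 59.3 CPM in naive-low cells (log2 -2.76 ± 0.31; edgeR adjusted p = 3.25e-16). Among 18 epithelial polarity and adhesion genes tested, Cldn7, Cldn6 and Crb3 fell and Vim rose, beside 2.89% and 3.92% of all genes tested.

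Gpx4 (chr10:80047166-80056439, plus strand), the peroxidase that protects membrane lipids, had 992 and 773 CPM in naive-high cells, against 170 and 298 CPM in naive-low cells. It rose by 1.98 ± 0.13 (edgeR adjusted p = 2.48e-46), and the median cell had 925 and 642 CPM in naive-high, against 143 and 251 CPM in naive-low. Gpx4 was chosen after its values were seen, as were Tmsb4x, Ifitm1, Hsd17b14 and Spp1, which rose by 1.63, 2.01, 1.92 and 2.14 on the log2 scale. Hspb1 (chr5:135887919-135889563, plus strand), a small heat shock protein, had 534 and 557 CPM in naive-high cells, against 140 and 143 CPM in naive-low cells (log2 1.99 ± 0.15; edgeR adjusted p = 3.21e-37). It was 1 of 2 that rose among 9 heat and chaperone genes, with Hsp90aa1, beside 3.92% of all genes tested. Of 18 glycolysis genes, Pfkp, Ldhb and Slc2a3 rose, beside the same share. Pfkp, a phosphofructokinase, had 95.2 and 160 CPM in naive-high cells, against 38.5 and 42.2 CPM in naive-low cells (log2 1.68 ± 0.21; edgeR adjusted p = 1.72e-12). Of 18 nuclear oxidative phosphorylation genes, Cox6c and Cox5a rose, again beside 3.92% of all genes. Of 17 cholesterol synthesis genes, 0 passed in edgeR or DESeq2, with 2 at an unadjusted p under 0.05 in edgeR.

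Among 74 ribosomal protein genes, 11 rose and 0 fell, with a median of 0.17, beside 3.92% and 2.89% of all genes tested. Rpl39l and Rpl10l rose by 1.57 and 1.29 and are copies of Rpl39 and Rpl10, and the sources used here do not say how reads shared with such copies were counted, which leaves these values uncertain. Of 19 S phase genes 2 rose (Mcm3 and Pcna), and 0 of 20 G2/M genes passed in edgeR or DESeq2, with 2 at an unadjusted p under 0.05 in edgeR. Of 14 p53 targets, Cdkn1a and Pmaip1 fell. Of 14 ATF4 targets, Atf4 rose and Atf5 fell. Of 10 germline genes controlled by methylation, Hormad1 and Rpl10l rose. Of 12 basement membrane genes Lamb1 fell, of 13 one-carbon enzymes Tdh rose, and 0 of 11 immediate early genes passed in edgeR or DESeq2, with 1 at an unadjusted p under 0.05 in edgeR.

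Markers of other cells were examined as a check on what the wells held. The 12 feeder fibroblast genes summed to 401 and 537 CPM in naive-high cells, against 255 and 311 CPM in naive-low cells. Of these 12, 3 were tested, and Fn1 and Vim rose, beside 3.92% of all genes tested. Col3a1, Lum, Postn, S100a4 and Acta2 had no count. Fn1 and Vim were also present in LIF_2i cells, at 401 and 387 CPM and at 239 and 233 CPM. Primitive endoderm genes summed to 182 and 123 CPM in naive-high cells, against 204 and 153 CPM in naive-low cells, with no count of Sox17. Of 3 tested, Lamb1 fell, beside 2.89% of all genes tested. Mesendoderm genes summed to 22.3 and 5.87 CPM in naive-high cells, against 17.7 and 18.6 CPM in naive-low cells, and none was abundant enough to test. Neuroectoderm genes summed to 108 and 82.2 CPM in naive-high cells, against 191 and 87.2 CPM in naive-low cells. Of 4 tested, Nes fell, beside 2.89% of all genes tested. Trophectoderm genes summed to 52.5 and 33.3 CPM in naive-high cells, against 55.4 and 47.2 CPM in naive-low cells, with no count of Elf5 or Plac1. Of 3 tested, Tfap2c was higher and Krt18 lower, beside 3.92% and 2.89% of all genes tested. 2-cell-like genes summed to 226 and 184 CPM in naive-high cells, against 142 and 171 CPM in naive-low cells, with 0 of 2 tested called by edgeR or DESeq2 and 1 at an unadjusted p under 0.05 in edgeR.

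Depth differed between the groups, by the median cell mainly in IB10. The median cell held 45346 (R1) and 27330 (IB10) counts in naive-high, against 46825 (R1) and 38595 (IB10) counts in naive-low. In R1 the cells summed to 1029269 counts in naive-high and 1245946 in naive-low, and the shallowest held 10395 and 16618 counts. Over single primed cells the score correlated with log10 counts by -0.1649 (R1) and -0.2455 (IB10). ERCC spike-in RNA took a median of 1.42% and 1.87% in naive-high cells, against 1.27% and 1.14% in naive-low cells, and its part in the results was not tested. Splits made within depth classes gave 355 genes higher and 278 lower. Thinning each cell to 10000 counts left 4901 genes, 0 calls in either direction in edgeR (0%) and 263 higher at an unadjusted p under 0.05. The cause of this loss of calls was not tested. With all 12 groups of the 6 libraries in the fit, thinned cells gave 76 of 6861 genes higher (1.11%) and 37 lower (0.539%), with Tdh, Fbxo15, Gpx4, Hspb1, Dnmt3l, Dnmt3b and Pou3f1 among the calls.

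In IB10, genes of chromosome 6 took 4.32% of counts in naive-high cells, against 3.80% in naive-low cells, and genes of chromosome 8 took 4.64% in naive-high cells, against 4.23% in naive-low cells. In R1 the shares were 3.91% in naive-high and 3.88% in naive-low cells for chromosome 6, and 5.62% in naive-high and 5.76% in naive-low cells for chromosome 8. Chromosome 8 carries Zfp42 and Klf2. Of the 339 genes called higher, 6.19% lay on chromosome 6 and 5.01% on chromosome 8, beside 4.50% and 5.82% of the genes tested. The part of these shares in the results was not tested.

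Because Dppa5a made up most of the score, the groups were also set without it. This gave 457 genes higher (5.23% of 8733) and 245 lower (2.81%). Of the genes called higher by all 8 genes, 272 were shared, which is 80.2% of the 339 and 59.5% of the 457, and none was called the other way. Of the genes called lower, 121 were shared, which is 48.4% of the 250 and 49.4% of the 245, and 7 were called higher instead. Dppa5a alone gave 226 genes higher (2.60% of 8708) and 140 lower (1.61%).

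Both pluripotency lists moved the same way without Dppa5a. Without it in the score, 28 of the naive list rose and 0 fell, with a median of 1.23, and 15 of the formative and primed list fell and 2 rose (Etv4 and Etv5), with a median of -0.66. Tdh rose by 3.09, Gpx4 by 1.60 and Hspb1 by 1.90, while Dnmt3b fell by 1.47, Pou3f1 by 1.62 and Pim2 by 2.27. Pou5f1 was no longer called (log2 0.21; edgeR adjusted p = 0.224). Lefty1 and Dnmt3a, which were not called with all 8 genes, fell by 0.40 and 0.36. Leaving out the 18 naive-high cells and any other cell at the LIF_2i level gave 210 genes higher (2.49% of 8441) and 111 lower (1.32%). In that fit Tdh still rose by 2.33 and Hspb1 by 1.76, and Dnmt3b fell by 0.94 (edgeR adjusted p = 5.16e-12, 1.32e-17 and 1.93e-10).

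**Figure D4:**
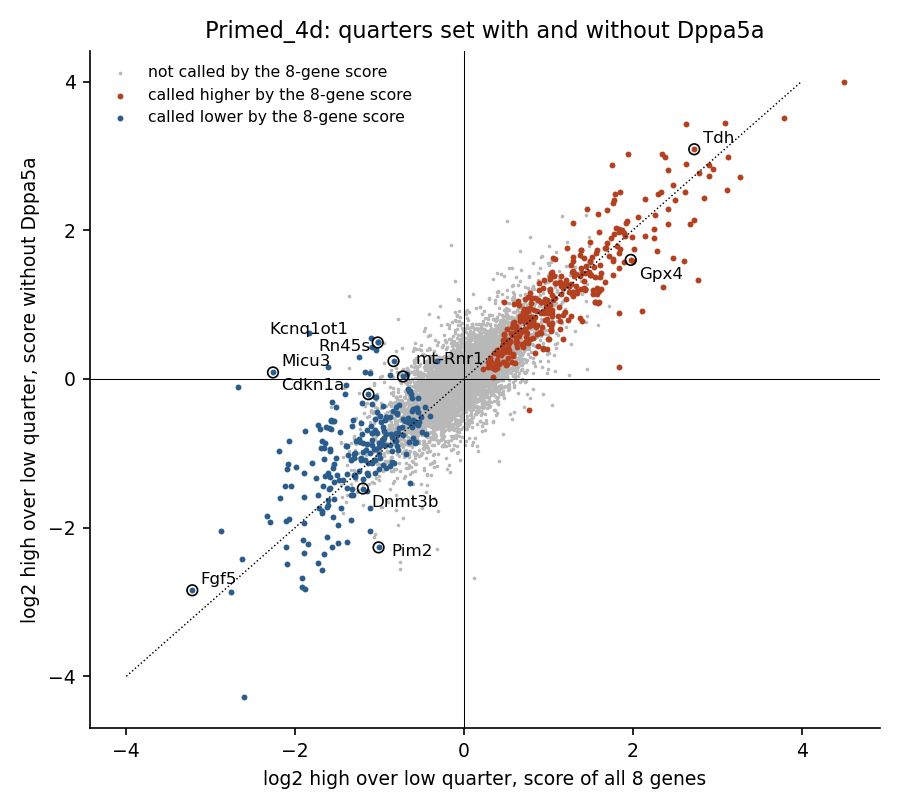
Each point is 1 gene, with the log2 difference between the groups set by all 8 genes on the x axis and by the 7 genes without Dppa5a on the y axis, and the dotted line marks equal values. Tdh, Gpx4, Fgf5 and Dnmt3b lie near the line, while Rn45s, Kcnq1ot1, mt-Rnr1, Cdkn1a and Micu3 lie near or above 0 on the y axis.

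Ribosomal and nuclear transcripts, named after their values were seen, changed with the score. Rn45s, the repeated precursor of ribosomal RNA, whose reads may be shared between copies, took 1.09% (R1) and 1.37% (IB10) of counts in naive-high cells, against 1.67% (R1) and 3.00% (IB10) in naive-low cells. It fell by 0.83 (SE 0.05; edgeR adjusted p = 4.15e-49) with all 8 genes and rose by 0.24 (edgeR adjusted p = 0.000207) without Dppa5a. In R1 the median cell ran the other way, with 10784 CPM in naive-high and 8544 CPM in naive-low cells, and 3 cells gave 53.7% of the naive-low counts. In IB10 the median cell had 12620 CPM in naive-high and 19285 CPM in naive-low cells. Kcnq1ot1, a long nuclear RNA antisense to Kcnq1, had 1121 and 1183 CPM in naive-high cells, against 3416 and 1687 CPM in naive-low cells. It fell by 1.02 with all 8 genes and rose by 0.49 without Dppa5a, and the sources used here do not say whether strand was used in counting, so reads of Kcnq1 may be included. The mitochondrial ribosomal RNAs mt-Rnr1 and mt-Rnr2 fell by 0.72 and 0.32, against log2 differences of 0.03 and 0.24 without Dppa5a. Malat1, a nuclear RNA, had 425 and 363 CPM in naive-high cells, against 426 and 1560 CPM in naive-low cells, so that its call (log2 -1.04 ± 0.13; edgeR adjusted p = 1.18e-13) rested on IB10. Cdkn1a, the p53-driven cell cycle inhibitor, fell by 1.13 with all 8 genes and had a log2 difference of -0.20 without Dppa5a (edgeR adjusted p = 0.639).

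The same split was made in the other cultures to see whether the differences belonged to primed cells. Over 12 summed groups with library as a block, 10110 genes were tested and 480 were higher (4.75%) and 263 lower (2.60%) in the naive-high primed group. The split called 49 genes higher (0.485%) and 33 lower (0.326%) in rosette_LIM, and 1 higher (0.00989%) and 3 lower (0.0297%) in LIF_2i. By the interaction term in edgeR, the signed log2 difference of primed_4d minus that of LIF_2i was above 0 for 233 genes (2.30%) and below 0 for 66 (0.653%). That of primed_4d minus rosette_LIM was above 0 for 229 genes (2.27%) and below 0 for 64 (0.633%). A value below 0 can be a deeper fall in primed_4d, and one above 0 can be a fall in the other culture. Both comparisons share the primed libraries, and DESeq2 called 50 and 3 genes against LIF_2i and 34 and 3 against rosette_LIM.

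In proportion the split itself was wider in primed_4d, while its width in CPM was close to that in rosette_LIM. The 8 score genes summed to 4521 (R1) and 5104 (IB10) CPM in the upper group of primed_4d, against 1482 and 1954 CPM in the lower group. In rosette_LIM they summed to 7621 and 7161 CPM in the upper group, against 4722 and 4089 CPM in the lower group. In LIF_2i they summed to 6964 and 7467 CPM in the upper group, against 4676 and 5066 CPM in the lower group. The part of the width of the split in the differences between cultures was not tested. Of 42 naive genes outside the score in this fit, 24 had a signed difference higher in primed_4d than in LIF_2i and 20 one higher than in rosette_LIM, and Fgf4 had a lower one in both. Their median log2 difference was 1.05 in primed_4d, 0.12 in rosette_LIM and 0.01 in LIF_2i. Within rosette_LIM, 4 of the 42 rose, Jam2 and Prdm14 among them, and Stra8 fell, beside 0.485% and 0.326% of all genes tested. Tdh differed by 2.75 in primed_4d, 0.33 in rosette_LIM and 0.17 in LIF_2i, and the primed difference was larger by 2.42 ± 0.24 than in rosette_LIM and by 2.58 ± 0.23 than in LIF_2i (edgeR adjusted p = 3.46e-12 and 5.06e-14). Klf5 differed by 1.40 in primed_4d, 0.41 in rosette_LIM and -0.09 in LIF_2i, and the primed difference was larger by 0.98 ± 0.21 than in rosette_LIM and by 1.49 ± 0.21 than in LIF_2i (edgeR adjusted p = 0.00166 and 3.04e-07). Hspb1 differed by 2.00 in primed_4d, 0.15 in rosette_LIM and 0.01 in LIF_2i.

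Among formative genes, Dnmt3b differed by -1.19 in primed_4d, -0.96 in rosette_LIM and -0.24 in LIF_2i, so that its fall was deeper than in LIF_2i (edgeR adjusted p = 0.000422) and not distinguishable from that in rosette_LIM (difference -0.23 ± 0.25; edgeR adjusted p = 0.789). Pou3f1 differed by -1.53 in primed_4d and 0.18 in rosette_LIM (difference -1.71 ± 0.49; edgeR adjusted p = 0.0339). In LIF_2i, where Pou3f1 was scarce, it differed by -1.14, not distinguishable from primed_4d (difference -0.39 ± 0.68; edgeR adjusted p = 0.88). Dnmt3l turned round, with 1.82 in primed_4d, -0.97 in rosette_LIM and -0.03 in LIF_2i. Rn45s fell in all 3 cultures, by 0.82 in primed_4d, 0.73 in rosette_LIM and 0.37 in LIF_2i.

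**Figure D5:**
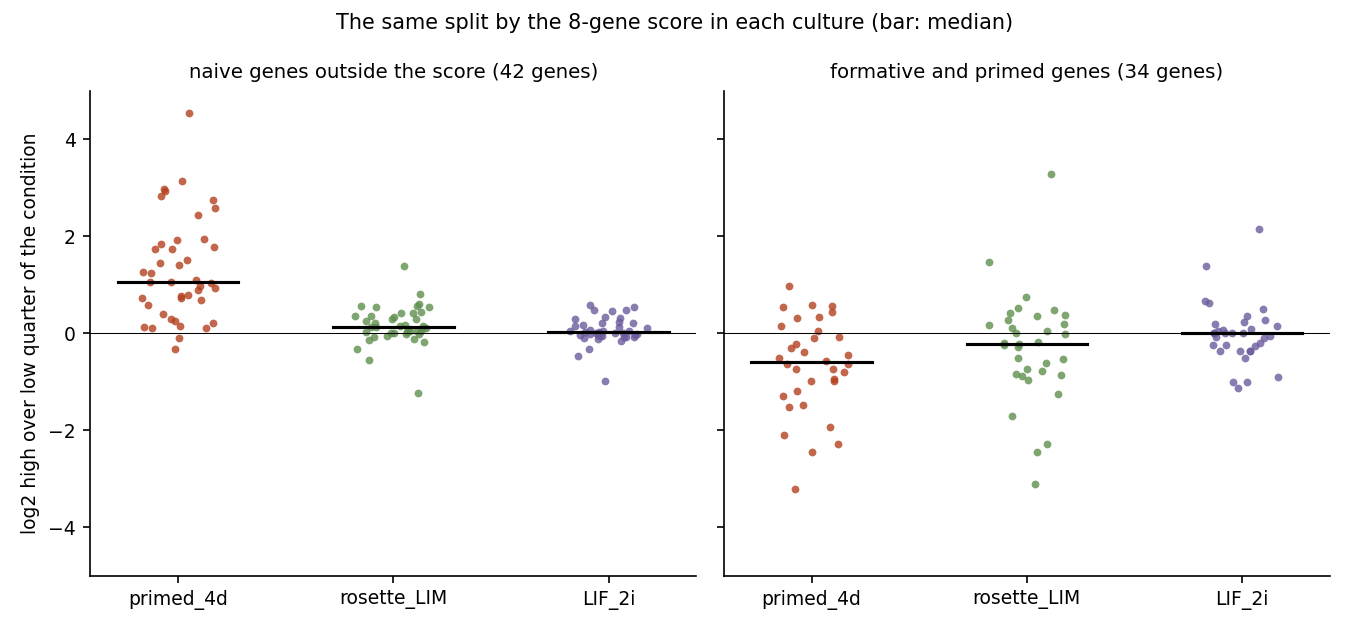
Fitted log2 difference between the upper and lower group of the 8-gene score within each culture, for 42 naive genes outside the score (left) and 34 formative and primed genes (right). Points are genes and bars are medians, and the naive genes run from -0.32 to 4.54 in primed_4d, from -1.24 to 1.39 in rosette_LIM and from -0.99 to 0.58 in LIF_2i.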

How the data were processed

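The authors deposited 1 expected count per gene and well; BWA and mm10/GRCm38 come from the submitters' processing notes, and the sources used here give no version and no other step. All 1297 distinct deposited values match whole numbers of UMIs corrected for UMI collisions within 0.0051, so they are counts without scaling to a common depth. ERCC rows stayed out of totals and tests, and 0 columns were left unused. Cell barcodes were not used here. No doublet caller was run on these sorted wells, and no primed cell exceeded 3 times the median depth.

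Counts of each group were summed per library and rounded, so the 2 lines are the replicates, and cells are not. CPM are those sums per 1000000 counts. edgeR 4.0.16 (R 4.3.3) used a model of line and group over 4 profiles, scaled by TMM and kept by filterByExpr (min.count 10), two-sided quasi-likelihood tests and Benjamini-Hochberg adjustment over all genes tested, at 0.05. The common dispersion was 0.0114. Line is the block because the labels give both groups of a pair the same line; the IB10 minus R1 differences correlated by 0.23 between the groups over 8646 genes. With 2 pairs an exact permutation test cannot go below 0.5, so none was run. DESeq2 1.42.0, limma 3.58.1 on log2(CPM + 5) and the other alternatives are in the closing section. The edgeR step was also run on simulated profiles, with the same dispersion for every gene and equal changes in both lines. No cells were chosen by a score there, so that run cannot show how often calls are false in these data. Log2 errors (SE) are the size of the log2 difference divided by the square root of edgeR's F statistic. In the main fit they rest on the spread shared across genes. They do not measure how far the 2 lines differ in a gene.

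The cells, the 29 gene lists and the tests were chosen with earlier results of these data known. Named genes are the 15 largest called changes each way with the same sign in both lines and a mean of 10 CPM or more, called list members, the score genes and a preset panel; for interactions, the 5 largest called each way. Coordinates are from GENCODE M21 (GRCm38). Some results are not reported here.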

Additional observations from a re-analysis of the deposited data

Results flagged for a closer look

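The difference between naive-high and naive-low cells was itself tested between cultures, and the genes below differed by edgeR's interaction term over 12 summed groups. The signed log2 difference of primed_4d minus that of LIF_2i was above 0 for 233 genes and below 0 for 66, and that of primed_4d minus rosette_LIM was above 0 for 229 and below 0 for 64.

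The log2 difference in primed_4d exceeded that in LIF_2i and in rosette_LIM by 2.58 and 2.42 for Tdh, by 2.97 and 2.97 for Fbxo15, by 2.22 and 2.27 for Morc1, by 1.49 and 0.98 for Klf5, by 1.79 and 1.73 for Gpx4, by 1.99 and 1.85 for Hspb1, and by 1.86 and 2.80 for Dnmt3l. Dnmt3b had a difference lower by -0.95 than in LIF_2i, and Pou3f1 one lower by -1.71 than in rosette_LIM, while against LIF_2i Pou3f1 was at -0.39 ± 0.68 (edgeR adjusted p = 0.88).

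The largest interactions were in scarce genes. Against LIF_2i they were Slc25a35 (6.58), Plxdc1 (6.23), Ak7 (5.62), Prkca (4.84) and Dlgap1 (4.32), with Kif1a (-4.45), Ap1m2 (-3.90), Spats2l (-3.78), Cldn7 (-3.76) and Id2 (-3.62) the other way. Slc25a35 had 9 and 3 counts in naive-high primed cells, against 0 and 0 in naive-low, and Plxdc1 had 6 and 5 counts in naive-high, against 0 and 0 in naive-low, so their fitted values depend on the prior count and are no bounds. Dlgap1 had 20 and 0 counts in naive-high primed cells, against 0 and 1 in naive-low, and rested on R1. Against rosette_LIM the largest were C1ra (6.19), Ak7 (6.07), Plxdc1 (6.02), Prkca (5.61) and Dll1 (5.44), with Wls (-7.64), Ptges (-3.50), Dhrs3 (-3.14), Farp1 (-2.93) and Sema6a (-2.87) the other way. C1ra and Dll1 differed mainly within rosette_LIM, by -5.73 and -4.50, with 0.46 and 0.94 in primed_4d. C1ra had 0 and 0 counts in the upper rosette_LIM group, against 9 and 3 in the lower one, and Wls had 7 and 1 counts in the upper rosette_LIM group, against 0 and 0 in the lower one, so these values too are no bounds.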

How the results depend on the processing

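Genes higher and lower in naive-high primed cells numbered 339 and 250. The fit without the replicate block gave 117 and 46, and of 118 named genes called, 62 kept their call there. DESeq2 gave 36 and 7 (26 of 117 named genes called), a split at the median gave 141 and 41, a minimum of 20000 counts gave 157 lower, the 7 genes without Dppa5a gave 457 higher, and Dppa5a alone gave 226 and 140. Thinned cells gave 0 and 0 (263 higher at an unadjusted p under 0.05 in edgeR, and 0 of 78 named genes called), and thinned cells scored anew 23 and 15; with 12 profiles these were 76 and 37, and 83 and 40. Added after seeing the data were Dppa5a alone, leaving out cells at the LIF_2i level (210 and 111) and all pairings of 12 profiles with another choice. Against LIF_2i the interactions of 233 and 66 became 21 and 6 with thinned cells, 26 and 10 with thinned cells scored anew, and 50 and 3 with DESeq2. Against rosette_LIM, 229 and 64 became 15 and 12, 21 and 9, and 34 and 3.

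Signs turned without Dppa5a, with 4 and (in brackets) 12 profiles, for Rn45s at 0.24 (0.23), Kcnq1ot1 at 0.49 (0.48), A630089N07Rik at 0.29 (0.28), Gm17821 at 0.38 (0.37), Gm10785 at 0.09 (0.07), Mir5109 at 0.05 (0.04), mt-Rnr1 at 0.03 (0.02), mt-Rnr2 at 0.24 (0.22), Micu3 at 0.09 (0.08), Dnmt3a at -0.36 (-0.37) and Lefty1 at -0.40 (-0.42), and with 12 profiles F830016B08Rik at 0.58. mt-Rnr2 was 0.05 by mean rank, Kcnq1ot1 0.02 and Gm17821 0.06 at 20000 counts, Mcm3 -0.07 and -0.06 in thinned cells scored anew (4 and 12 profiles), and Tfap2c -1.29 and -1.01 in 12 profiles of thinned cells. The cause was not tested. Leaving out 1 line gave values with no test: 117 of the 118 kept their sign in R1 alone, except Malat1 (-2.07 in IB10 alone and 0.05 in R1 alone), and all 118 in IB10 alone. The choice of genes nearly fixed this. All 118 were called over both lines, and the largest changes were named only where the lines agreed in sign. Over all genes tested, 61.2% had the same sign in both lines. Dlgap1 against LIF_2i ranged from -0.44 in IB10 alone to 3.77 in R1 alone.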
